A study of Mus musculus with 15 samples.

Results

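The genes described here are Fgf5, Otx2, Pou3f1, Sox1, Sox3, Pax6, Nes and Zic2, 8 formative and neural lineage genes picked by gene symbol out of the 21662 genes present in both count tables. They were followed in mouse embryonic stem cells (ESC) of a mixed 129Sv-C57Bl/6 background, grown in serum with LIF on feeder cells or gelatine, in 15 strand-specific, rRNA-depleted RNA-seq libraries that fall into 6 groups from 2 experiments. The KO experiment held the parental wild type (WT, n = 3), an Hmga1 KO line carrying a frameshift made by CRISPR (n = 2), and 2 add-back lines, in which biotin-tagged Hmga1 (n = 2) or Hmga2 (n = 2) was introduced into the KO cells under a CAG promoter at a defined chromosomal site. The full-deletion experiment held WT cells (n = 3) and a line in which the whole Hmga1 gene had been removed (n = 3). Each genotype was represented by 1 line, its replicates were separate cultures, and p-values therefore measure the spread between cultures of a line and not between independently made lines.

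Hmga1 and Hmga2 are small chromatin proteins that contact AT-rich DNA in the minor groove through AT-hooks. The KO and full-deletion comparisons ask whether loss of Hmga1 alters transcription in ESC. The genes followed here mark the first steps out of the naive pluripotent state. In the formative state, which lies between naive pluripotency and lineage commitment, Otx2 and Pou3f1 are switched on as transcription factors and Fgf5 as a secreted growth factor. Sox1, Sox3 and Pax6 are transcription factors of the neural plate and its progenitors, Nes encodes the intermediate filament nestin of neural progenitors, and the zinc-finger factor Zic2 is used in both the epiblast and the neural plate.

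Of the 8 genes, 5 have an entry in the RefSeq promoter table, which gives 250 bases before and 50 bases after a transcription start, and these were placed on NCBIM37 (mm9) by exact match. The promoters of 3 genes are shown because, among the 7 genes with enough counts to test, Otx2 had the highest log2 fold change in the full-deletion line, Sox1 the lowest in the KO line and Pax6 the lowest in the add-back lines. Capitals mark every run of at least 6 consecutive bases that are A or T, since AT-hooks contact AT-rich DNA. The paper reports that Hmga binding followed AT content, without enrichment at active promoters. In its models, longer A/T stretches appeared not to be bound more strongly than base content predicted. The windows are chr14:49287270-49287569 (minus strand) for the outermost of the 4 listed starts of Otx2, chr8:12395269-12395568 (plus strand) for Sox1 and chr2:105508803-105509102 (plus strand) for the upstream start of Pax6, each written 5′ to 3′ in the direction of transcription.
Otx2: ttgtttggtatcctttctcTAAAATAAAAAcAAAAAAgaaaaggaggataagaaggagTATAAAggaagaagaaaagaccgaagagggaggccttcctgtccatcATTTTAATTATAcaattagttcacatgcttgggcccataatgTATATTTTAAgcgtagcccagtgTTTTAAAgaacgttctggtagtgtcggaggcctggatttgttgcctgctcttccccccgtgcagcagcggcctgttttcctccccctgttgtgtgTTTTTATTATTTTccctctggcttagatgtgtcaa
Sox1: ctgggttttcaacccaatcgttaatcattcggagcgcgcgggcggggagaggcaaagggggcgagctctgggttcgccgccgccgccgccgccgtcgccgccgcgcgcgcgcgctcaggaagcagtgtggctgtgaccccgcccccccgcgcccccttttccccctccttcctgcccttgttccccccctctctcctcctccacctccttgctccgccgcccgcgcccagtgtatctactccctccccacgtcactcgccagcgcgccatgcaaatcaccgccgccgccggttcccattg
Pax6: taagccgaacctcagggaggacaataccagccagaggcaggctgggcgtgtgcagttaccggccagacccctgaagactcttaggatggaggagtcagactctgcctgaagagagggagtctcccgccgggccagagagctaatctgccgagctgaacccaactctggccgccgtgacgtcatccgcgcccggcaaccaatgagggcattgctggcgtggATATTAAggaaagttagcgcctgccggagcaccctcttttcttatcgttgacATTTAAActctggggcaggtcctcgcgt
The Otx2 window held 7 such runs, the longest of 13 bases, and its AT content of 58.3% was above that of 85.9% of the 32851 promoters in the table, whose median was 47.3%. The Sox1 window held none, with an AT content of 29.3% that exceeded 8.16% of promoters, and the Pax6 window held 2, with 41.3% AT, above 31.9% of promoters. At least 1 such run occurred in 69.6% of all promoters of this length. The other starts of Otx2 had an AT content of 46.3% to 52.3%, the second start of Pax6 53.7%, Nes 41.3% and Fgf5 31.7%. The octamer ATGCAAAT, the letters bound by POU factors such as the product of Pou3f1, was found on either strand in the Sox1 window and in no other member window, and in 1.74% of all promoters. The letters TATAAA, searched on both strands, were found in the outermost Otx2 window, where they are themselves part of an A/T run, and in the Fgf5 window, and in 13.6% of all promoters. These matches describe the letters only.

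Across their whole annotated span the genes were placed on NCBIM37 as follows. Otx2 (chr14:49277354-49287319, minus strand) and Pax6 (chr2:105509053-105543317, plus strand) had an AT content of 52.8% and 52.9%, close to the median of 54.4% over 18656 protein-coding genes. Sox3 (chrX:58144545-58146605, minus strand) and Pou3f1 (chr4:124334896-124337899, plus strand), both short genes, had 33.4% and 38.5%, with only 0.177% and 0.713% of genes below them. Nes (chr3:87775000-87784373, plus strand) and Zic2 (chr14:122874604-122879074, plus strand) had 45.3% and 45.4%, and Fgf5 (chr5:98683203-98706049, plus strand) had 59.1%, above 80.4% of genes. Among the 7 members placed by the annotation, only Fgf5 lay above the median, and the others lay below it. Sox1 was not found by name in the annotation and has no span here.

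Library totals of the KO experiment ran from 13465399 to 34952136 counts and those of the full-deletion experiment from 14832310 to 21708492, and every value below is in CPM, counts scaled to library size with TMM factors within each experiment, unless RPKM, which also divides by exon length, is named. Hmga1 itself stood at 220 to 464 CPM in WT and 96.0 to 217 CPM in the KO line, and at 10.9 to 12.3 CPM in the full deletion against 310 to 356 CPM in its WT. Hmga2 stood at 222 to 249 CPM in the Hmga2 add-back and at 12.8 to 23.8 CPM in all other libraries. In the Hmga1 add-back Hmga1 stood at 123 to 184 CPM, within the range of the KO and below every WT library. By Western blot, the paper reports Hmga1 protein in this line as restored to about the WT level, and none detected in the KO. It also reports that the KO still makes a shortened Hmga1 transcript. A count per gene does not separate that transcript from intact Hmga1 RNA, so it cannot test the label. The line is named here by its label. Summed over 16 genes, ESC markers such as Pou5f1 and Nanog reached 5781 to 8848 CPM in the WT of the full-deletion experiment, 5186 to 5303 CPM in the full deletion and 6207 to 7513 CPM in the KO experiment, against 10.1 to 19.0 CPM for 8 fibroblast markers that feeder cells could add, of which the defining markers Dcn and Postn were at 0 in most groups. Replicate b of the WT of the full-deletion experiment stood apart, with a TMM factor of 0.752 where the other 5 libraries had 0.986 to 1.12, and with 8.78% of its counts in its 10 most abundant genes against 4.67% to 5.38%. In bulk RNA a difference in level cannot be divided into fewer cells that express a gene and less RNA in each cell.

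Per length, the 8 genes covered a wide range in undifferentiated cells. In the WT of the KO experiment Otx2 was highest, at 9.06 RPKM ± 3.74 (SD, n = 3), followed by Sox1 at 6.17 ± 2.91, Nes at 5.20 ± 0.428, Zic2 at 4.84 ± 2.76 and Pax6 at 4.20 ± 0.801. The replicates of each of these overlapped with those of the next, so the order of neighbours was not resolved. Otx2, at 6.14 RPKM or more, did lie wholly above Nes (up to 5.68) and Pax6 (up to 5.13). Pou3f1 at 2.31 ± 0.687, Sox3 at 0.516 ± 0.127 and Fgf5 at 0.173 ± 0.0649 lay lower, and each was separated from its neighbours. The Otx2 level exceeded that of 72.4% of all genes in these cells and the Fgf5 level that of 36.9%. In the WT of the full-deletion experiment the order began instead with Zic2, at 9.76 RPKM ± 0.662 (n = 3), which did not overlap with Otx2 at 6.20 ± 2.25, and Sox1 reached 2.90 ± 0.620. The 2 experiments were scaled separately, so these levels are set side by side only.

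**Figure D1:**
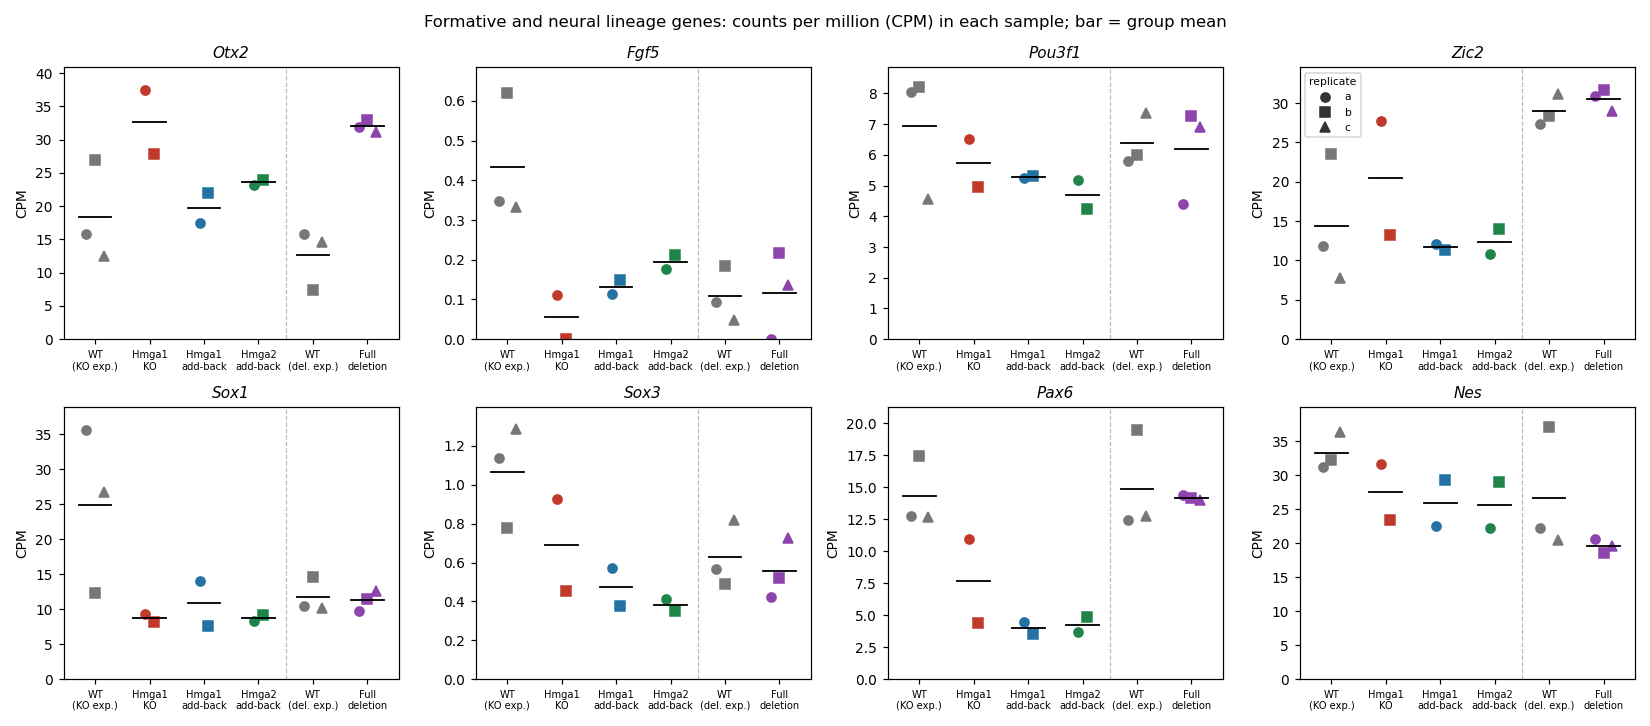
Each panel plots one gene as CPM on a linear axis from 0, with one symbol per library, shaped by replicate letter, in the 6 groups; the dashed line separates the 2 experiments and black bars are group means. Otx2 in the full deletion sits at 31.2 to 33.0 CPM above all of its WT libraries, whereas Sox1 in WT of the KO experiment spreads from 12.3 to 35.6 CPM.

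The comparison of the KO line with WT asks whether these genes respond to loss of Hmga1. None of the 7 genes with enough counts to test was called at the thresholds of the study, an adjusted p under 0.01 and at least a 2-fold change. The study applied them to limma-trend, and here they were applied to the quasi-likelihood test of edgeR, with Benjamini-Hochberg adjustment across the 13912 genes tested, which called 0.0216% of all genes. At an unadjusted p under 0.05 there were 3 members, Sox1 and Pax6 with lower values and Otx2 with a higher value, where 12.6% of all genes did so, while DESeq2 also called 0 members and limma-trend 0. Of the 7 fitted changes 5 were negative, with a median log2 fold change of -0.44 against -0.01 over all genes.

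Among the formative factors, Otx2 measured 15.8, 27.0 and 12.5 CPM in WT replicates a, b and c and 37.4 and 27.9 CPM in KO replicates a and b. Both KO libraries were above all WT libraries, but by little in b. The fitted log2 fold change was 0.67 ± 0.25 (SE; 95% interval 0.09 to 1.24) with an adjusted p of 0.348 in edgeR. The letters a, b and c of this experiment are batches that shared a library preparation day and flow cell, and within batch a the KO was at 237% of WT (95% counting interval 214 to 263), within batch b at 103% (89.0 to 120).

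Pou3f1, a POU-domain factor of the formative state, measured 8.06, 8.22 and 4.56 CPM in WT and 6.51 and 4.94 CPM in the KO, so the groups overlapped through WT c. Its log2 fold change was -0.50 ± 0.22, with an adjusted p of 0.401.

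Fgf5 did not reach the minimum mean count of 10 in either experiment and was not tested, with 11, 8 and 8 counts in WT and 4 and 0 counts in the KO. Pooled over libraries this gave 0.393 CPM (exact Poisson 95% interval 0.259 to 0.572) in WT and 0.0819 CPM (0.0223 to 0.210) in the KO, and these intervals cover counting error only. In an alternative fit without the count minimum its log2 fold change was -2.40 ± 0.97 with an adjusted p of 0.440.

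Zic2 differed in direction between the 2 batches. WT measured 11.8, 23.5 and 7.75 CPM and the KO 27.7 and 13.3 CPM, which is 235% of WT (208 to 265) in batch a and 56.6% (46.7 to 68.4) in batch b. The fitted log2 fold change of 0.28 ± 0.40 had an adjusted p of 0.815, and it became -0.55 without KO a and -0.33 without WT a.

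Among the neural factors, Sox1 had the lowest p of the members in the KO. It measured 35.6, 12.3 and 26.7 CPM in WT and 9.28 and 8.21 CPM in the KO, with both KO libraries below all WT libraries. The log2 fold change was -1.37 ± 0.36 (95% interval -2.19 to -0.56), with an unadjusted p of 0.00447 and an adjusted p of 0.197 in edgeR. The KO stood at 26.1% of WT (23.0 to 29.5) in batch a and at 66.5% (51.6 to 85.5) in batch b. Most of the spread came from WT, and without WT a the log2 fold change was -0.65, without WT b -1.89.

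Pax6, the paired-box factor of neural progenitors, measured 12.8, 17.5 and 12.7 CPM in WT and 10.9 and 4.41 CPM in the KO. Both KO libraries were below WT, by unequal amounts, at 85.7% (74.3 to 98.7) in batch a and 25.3% (18.6 to 33.8) in batch b. The fit gave a log2 fold change of -0.96 ± 0.39 with an adjusted p of 0.371, and it ranged from -1.85 to -0.35 over the alternatives.

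Sox3 was near the detection limit, with 36, 10 and 31 counts in WT and 33 and 6 counts in the KO. Its log2 fold change was -0.44 ± 0.40 with an adjusted p of 0.684. Nestin RNA was the steadiest of the members in WT, at 31.2, 32.3 and 36.4 CPM, and measured 31.7 and 23.4 CPM in the KO, a log2 fold change of -0.19 ± 0.20 (95% interval -0.65 to 0.28) with an adjusted p of 0.749.

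**Figure D2:**
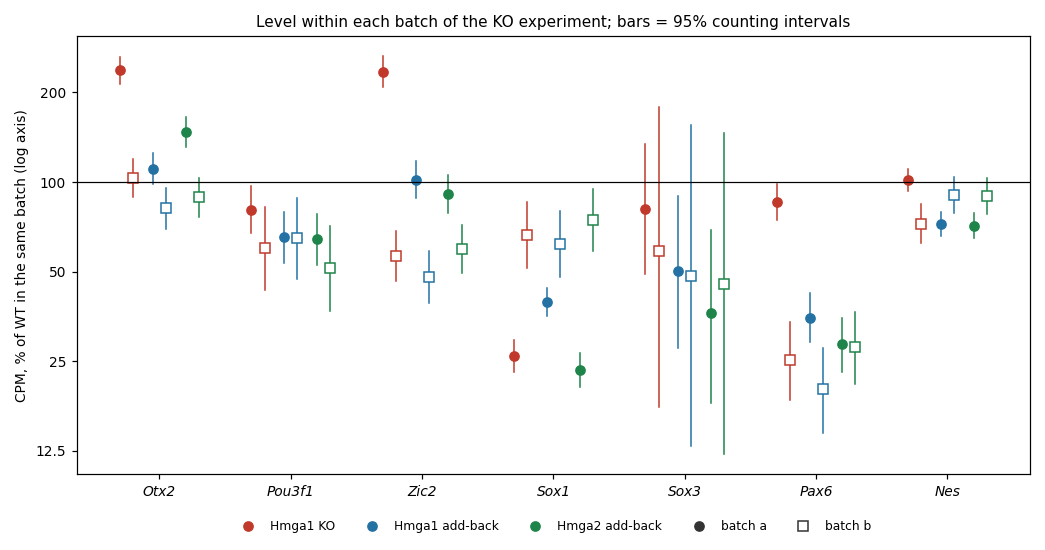
The CPM of each KO-derived library is plotted as a percent of the WT library of the same batch on a log axis, for batch a (filled circles) and batch b (open squares), with 95% counting intervals as bars. Pax6 in both add-backs lies between 20.2% and 35.1% of WT in either batch, whereas Zic2 and Otx2 in the KO reach 235% and 237% in batch a only.

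The paper made the add-back lines to learn whether tagged Hmga proteins bind differently when endogenous Hmga1 is missing. The Hmga1 count in the line labelled for it was within the KO range, although the paper reports its protein as restored. Both lines were compared with the same WT libraries as the KO, so the comparisons with WT are not independent of each other. Against WT no member was called for the line labelled Hmga1 add-back, where the rule called 0.0144% of all genes, or for the Hmga2 add-back, where it called 0.0647%. In each there were 4 members at an unadjusted p under 0.05 in edgeR, the same 4 genes, Pou3f1, Sox1, Sox3 and Pax6, all with values below WT, where 13.3% of all genes did so for Hmga1 and 16.9% for Hmga2. DESeq2 called 1 member in each, Pax6, and limma-trend called 0. The share of all genes that DESeq2 called was not computed, so its calls have no background to be set against. The median log2 fold change of the 7 members was -0.62 for Hmga1 and -0.79 for Hmga2, against 0.00 over all genes in both.

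Pax6 was the member farthest below WT in both lines. Against 12.7 to 17.5 CPM in WT it measured 4.48 and 3.52 CPM in the line labelled Hmga1 add-back and 3.64 and 4.86 CPM in the Hmga2 add-back, so that all 4 add-back libraries lay below every WT library. The log2 fold change was -1.91 ± 0.40 (95% interval -2.83 to -0.99), with an unadjusted p of 0.00129 and an adjusted p of 0.134, in the line labelled Hmga1 add-back. In the Hmga2 add-back it was -1.85 ± 0.40 (-2.77 to -0.93), with an unadjusted p of 0.00154 and an adjusted p of 0.116. A fit to the WT and Hmga2 add-back libraries alone gave -1.82 with an adjusted p of 0.000614 in edgeR, which passes the rule. In that fit WT c, alone in its batch, adds nothing to the difference, so few libraries are left to measure the spread. The adjusted p therefore rests largely on the spread shared across genes, and the share of all genes it called was not computed.

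Sox1 stood at 14.1 and 7.64 CPM in the line labelled Hmga1 add-back, which overlapped with WT through WT b, and at 8.35 and 9.22 CPM in the Hmga2 add-back, below all WT libraries. The log2 fold changes were -1.09 ± 0.35 (adjusted p of 0.277) and -1.35 ± 0.36 (adjusted p of 0.154), and without WT a they were -0.34 and -0.64. Sox3 showed 20 and 5 counts in the line labelled Hmga1 add-back and 14 and 5 in the Hmga2 add-back, with log2 fold changes of -1.003 ± 0.42 and -1.34 ± 0.44. The adjusted p for Sox3 was 0.361 and 0.206. Pou3f1 measured 5.25 and 5.32 CPM and 5.18 and 4.22 CPM in the 2 lines, between 51.4% and 65.2% of the WT of the same batch, yet WT c at 4.56 CPM lay within this range. Its log2 fold changes were -0.62 ± 0.22 and -0.79 ± 0.22, with an adjusted p of 0.317 and 0.178.

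The remaining members were Otx2, Zic2, Nes and Fgf5. Otx2 in the line labelled Hmga1 add-back measured 17.5 and 22.0 CPM and in the Hmga2 add-back 23.2 and 24.0 CPM, all within the WT range of 12.5 to 27.0 CPM. Zic2 lay at 10.8 to 14.0 CPM over the 4 libraries, also within its wide WT range of 7.75 to 23.5 CPM. In batch b it was at 48.2% of WT (39.4 to 58.7) in the line labelled Hmga1 add-back and 59.6% (49.6 to 71.5) in the Hmga2 add-back. In batch a the values were 102% and 91.4%. The log2 fold changes of Zic2 were -0.56 ± 0.40 and -0.49 ± 0.40, with adjusted p of 0.556 and 0.524 in edgeR. Nes measured 22.5 and 29.2 CPM and 22.3 and 29.0 CPM, below the lowest WT value of 31.2 CPM in all 4 libraries, with log2 fold changes of -0.31 ± 0.20 and -0.32 ± 0.20 and adjusted p of 0.523 and 0.426. Fgf5 had 4 and 2 counts and 6 and 3 counts. Counted over all 8 members without regard to the test, 3 lay wholly below WT and 1 wholly above in the KO, where 10.5% and 13% of all tested genes did so. In the line labelled Hmga1 add-back 4 members lay below WT against 7.56% of genes, and in the Hmga2 add-back 5 against 12.3%. Each of these counts below WT includes Fgf5, which was not among the tested genes that the shares cover.

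Against the KO line itself, no member was called in either add-back, where the rule called 0% of genes for Hmga1 and 0.00719% for Hmga2. At an unadjusted p under 0.05 there were 2 members for Hmga1, Otx2 and Pax6, and 0 for Hmga2, where 2.8% and 5.09% of all genes did so. DESeq2 and limma-trend also called 0 members in both. Otx2 in the line labelled Hmga1 add-back was at 46.6% of the KO in batch a (42.3 to 51.4) and 79.0% in batch b (67.6 to 92.4), with a log2 fold change of -0.76 ± 0.25 and an adjusted p of 0.9999. Sox1, which was low in the KO, was at 152% of the KO in batch a and 93.2% in batch b for Hmga1, and the fitted change was 0.28 ± 0.36. For Hmga2 it was 0.03 ± 0.36. Pax6 lay below the KO in batch a, at 40.9% for Hmga1 and 33.3% for Hmga2, but at 79.9% and 110% in batch b. Its log2 fold changes were -0.95 ± 0.40 (adjusted p of 0.9999) and -0.89 ± 0.40 (adjusted p of 0.877). Zic2 was at 43.5% of the KO in batch a and 85.1% in batch b for Hmga1, and at 39.0% and 105% for Hmga2. The log2 fold changes of Zic2 were -0.84 ± 0.40 and -0.77 ± 0.40, with adjusted p of 0.9999 and 0.877 in edgeR. The add-back values of Sox1 and Pax6 gave no called move from the KO towards WT. In the line labelled Hmga1 add-back the interval for Sox1 was -0.54 to 1.11. That for Pax6, which was below WT in the KO, was -1.87 to -0.03, wholly on the side away from WT. For Otx2, which was above WT in the KO, it was -1.33 to -0.19, on the side towards WT and likewise without a call.

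**Figure D3:**
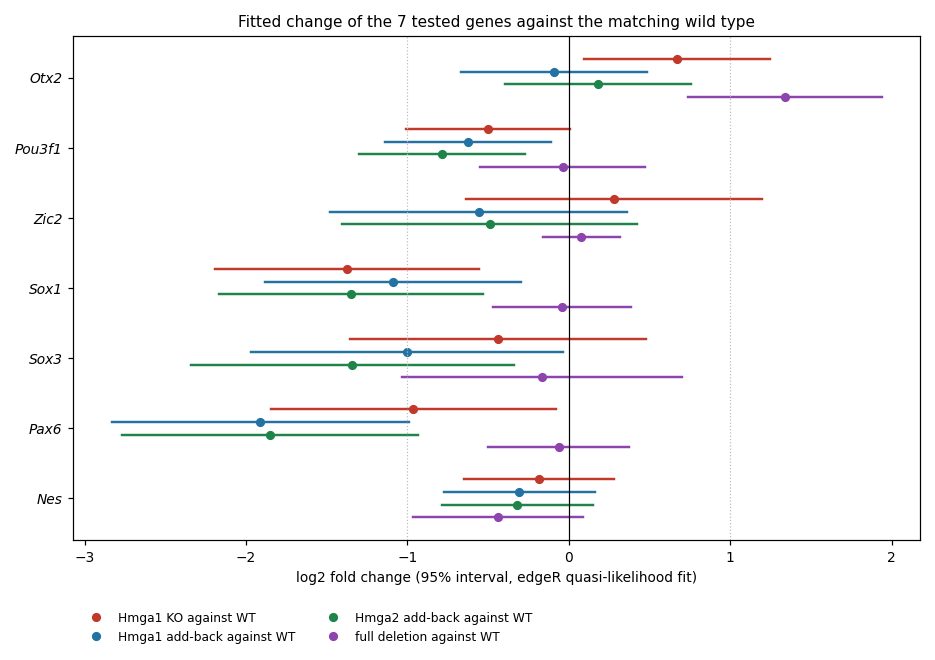
Fitted log2 fold changes of the 7 tested genes against the WT of the same experiment are shown as points with 95% intervals from the edgeR fit, coloured by comparison; dotted lines mark a 2-fold change. Otx2 in the full deletion is the highest, at 1.34, and Pax6 in the 2 add-backs the lowest, at -1.91 and -1.85.

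The full-deletion line asks the same question of cells from which the gene itself has been removed. At the stricter thresholds no member was called, where they called 0.0687% of the 13098 genes tested. At an adjusted p under 0.05 and at least 2-fold, which called 2.77% of genes, the one member called was Otx2, which was also the one member of 7 at an unadjusted p under 0.05, where 37% of all genes did so. DESeq2 called Otx2 under the stricter rule, with no share of all genes computed for that test, and limma-trend called 0 members there.

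Otx2 measured 15.7, 7.35 and 14.7 CPM in WT and 31.9, 33.0 and 31.2 CPM in the full deletion. All 3 deletion libraries lay above every WT library, as did those of 26.7% of all genes, and the deletion mean was 254% of the WT mean. The deletion libraries agree closely with each other, and the spread lies in WT, where replicate b was lowest. The log2 fold change was 1.34 ± 0.26 (95% interval 0.74 to 1.94) with an adjusted p of 0.0334 in edgeR. Without WT b it was 1.07 with an adjusted p of 4.44e-08, which passes the stricter rule, whereas leaving out WT c or any 1 deletion library raised the adjusted p to between 0.0761 and 0.160 with log2 fold changes of 1.31 to 1.46. The summed ESC markers differed in the opposite direction to Otx2. All 3 deletion libraries, at 5186 to 5303 CPM, lay below every WT library, at 5781 to 8848 CPM. Of single tested genes, 24.7% lay wholly below WT. The highest WT sum was that of WT b, while WT a and WT c were at 5883 and 5781 CPM. Of the 16 markers 9 had negative and 7 positive log2 fold changes, with a median of -0.20. The 2 lowest p-values in edgeR went in opposite directions, Fgf4 at -0.70 ± 0.12 (adjusted p of 0.0279) and Dppa3 at 0.96 ± 0.17 (adjusted p of 0.0293). Zfp42 was at -0.93 ± 0.34 (adjusted p of 0.0967) and Nanog at 0.45 ± 0.28 (adjusted p of 0.265). The part of this in the Otx2 value was not tested.

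The other 6 tested members gave no call in the full deletion. Sox1 measured 10.4, 14.6 and 10.1 CPM in WT and 9.79, 11.4 and 12.7 CPM in the deletion, a log2 fold change of -0.04 ± 0.18 (95% interval -0.47 to 0.39). Pax6 measured 12.4, 19.4 and 12.7 CPM in WT and 14.4, 14.2 and 14.0 CPM in the deletion, a change of -0.06 ± 0.19 (-0.50 to 0.37). For both genes the interval leaves out a 2-fold change in either direction. WT b held the highest value of both genes. Zic2 was at 27.4 to 31.2 CPM in WT and 29.0 to 31.7 CPM in the deletion, with an interval of -0.16 to 0.31. Pou3f1 overlapped at 5.79 to 7.37 and 4.41 to 7.25 CPM, and Sox3 was at 8 to 17 counts in WT and 7 to 16 in the deletion. Nes measured 22.2, 37.1 and 20.4 CPM in WT and 20.7, 18.6 and 19.5 CPM in the deletion, a log2 fold change of -0.44 ± 0.23 with an adjusted p of 0.192, and its high value was again WT b. Fgf5 had 2, 3 and 1 counts in WT and 0, 5 and 3 in the deletion, and 0 counts in deletion a allow up to 0.181 CPM.

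**Figure D4:**
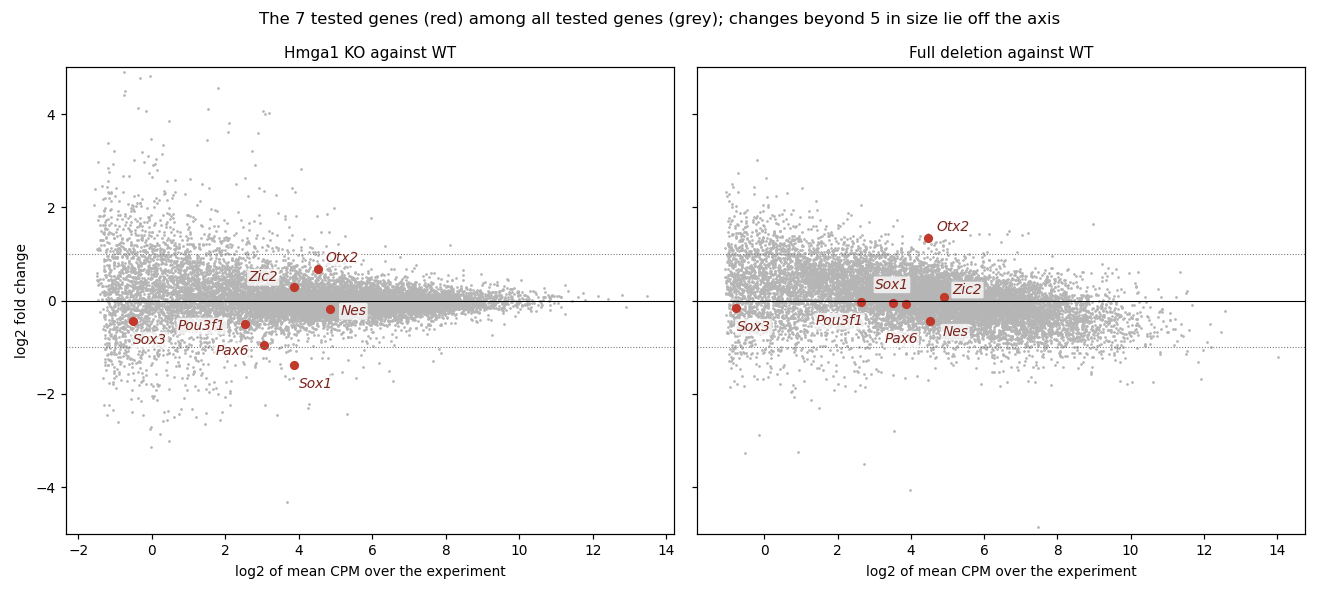
Each grey dot is a tested gene, plotted by the log2 of its mean CPM over the experiment and its log2 fold change in the KO (left) or the full deletion (right); red dots are the 7 tested members and dotted lines mark 2-fold. Otx2 lies at the upper edge of the cloud, at 1.34 on the right and 0.67 on the left, and Sox1 at its lower edge at -1.37 on the left and within the cloud at -0.04 on the right, where the cloud tilts downwards at high CPM.

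Whether the full deletion and the KO differed in effect was tested as the difference of the 2 log2 fold changes in a joint fit of all 15 libraries. No member was called, where the rule called 0.0951% of 13671 genes, and DESeq2 and limma-trend also called 0 members. In edgeR 1 member had an unadjusted p under 0.05, where 18.4% of all genes did so. That member was Sox1, with a difference of 1.31 ± 0.43 (95% interval 0.38 to 2.25), an unadjusted p of 0.00990 and an adjusted p of 0.217, and without WT a of the KO experiment the difference was 0.59. For Pax6 the difference was 0.87 ± 0.45 (adjusted p of 0.307) and for Otx2, with positive values in both lines, 0.66 ± 0.39 (adjusted p of 0.359). The genotype, the line and the experiment changed together between the KO and the full deletion, and their parts cannot be told apart.

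Other genes of the same states were read from wider lists that hold none of the 8 members. Of 21 formative and primed epiblast genes, 20 were tested. In the KO 17 of the 20 had negative log2 fold changes, with a median of -0.35, and none was called, with 9 at an unadjusted p under 0.05 in edgeR against 12.6% of all genes. DESeq2 called 2 of them, Cdh2 and Sall3, again with no share of all genes computed. In the line labelled Hmga1 add-back 17 of 20 were negative with a median of -0.46, in the Hmga2 add-back 19 of 20 with a median of -0.50, and in the full deletion 14 of 20 with a median of -0.22, against all-gene medians between -0.01 and 0.04. Cdh2, which encodes N-cadherin, had the lowest p of the list in all 3 KO-derived lines, at 5.51 to 6.67 CPM in WT and 1.57 to 1.67 CPM in the KO, a log2 fold change of -1.90 ± 0.30 with an adjusted p of 0.0655. In the full deletion 10 of the 20 had an unadjusted p under 0.05 in edgeR, where 37% of all genes did so. The lowest p belonged to Dnmt3b, a de novo DNA methyltransferase, at -0.68 ± 0.11 with an adjusted p of 0.0250. Next came the forkhead factor Foxd3 at -0.88 ± 0.15 with an adjusted p of 0.0284, and neither reached a 2-fold change. The less strict rule, an adjusted p under 0.05 and at least 2-fold, was passed by 1 gene of the list. That gene was Pim2, which was higher, at 1.02 ± 0.21 with an adjusted p of 0.0382.

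Of 37 neural plate and neural progenitor genes only 15 had enough counts to test in the KO experiment, and 13 did so among the deletion libraries. In the KO 8 of 15 were negative with a median of -0.07, none was called, and 6 had an unadjusted p under 0.05 against 12.6% of all genes. The 2 lowest p-values were those of the homeobox genes En2, at -0.73 ± 0.21, and Gbx2, at -1.72 ± 0.49. In the full deletion 1 gene was called, Gbx2, which was lower at 51.7 to 60.7 CPM against 124.7 to 127.6 CPM in WT, a log2 fold change of -1.15 ± 0.10 with an adjusted p of 0.00913. That call was lost with the replicate block, with summed counts alone and without any 1 of the libraries other than WT b. Hesx1, a homeobox gene of the anterior neural plate, and Msi1, an RNA-binding protein of neural progenitors, differed in the opposite direction, at 2.05 ± 0.22 (adjusted p of 0.0132) and 1.38 ± 0.16 (adjusted p of 0.0141). Both passed the less strict rule, as did En1 with a lower value, at -1.04 ± 0.25 (adjusted p of 0.0485). Hesx1 and Msi1 were called as higher without WT b. Gbx2 is known in ESC as well as in the neural plate.

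Markers of another cell type were also below WT in the KO experiment. Of 7 primitive endoderm markers, Gata6, Gata4, Sox17, Sox7, Pdgfra, Dab2 and Cubn, all 7 had negative log2 fold changes in the KO, with a median of -2.39, and none was called, with 7 at an unadjusted p under 0.05 against 12.6% of all genes. Their summed level was 90.6 to 194 CPM in WT, 12.9 to 69.2 CPM in the KO, 40.6 to 149 CPM in the line labelled Hmga1 add-back and 39.8 to 49.4 CPM in the Hmga2 add-back, and none of the 7 was at 0 in any group. WT a, the library highest in Sox1, also had the highest sum. In the full-deletion experiment the sum was 12.8 to 15.7 CPM in WT and 16.4 to 17.7 CPM in the deletion. The part of these cells in the values of Sox1 and Pax6 was not tested.

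**Figure D5:**
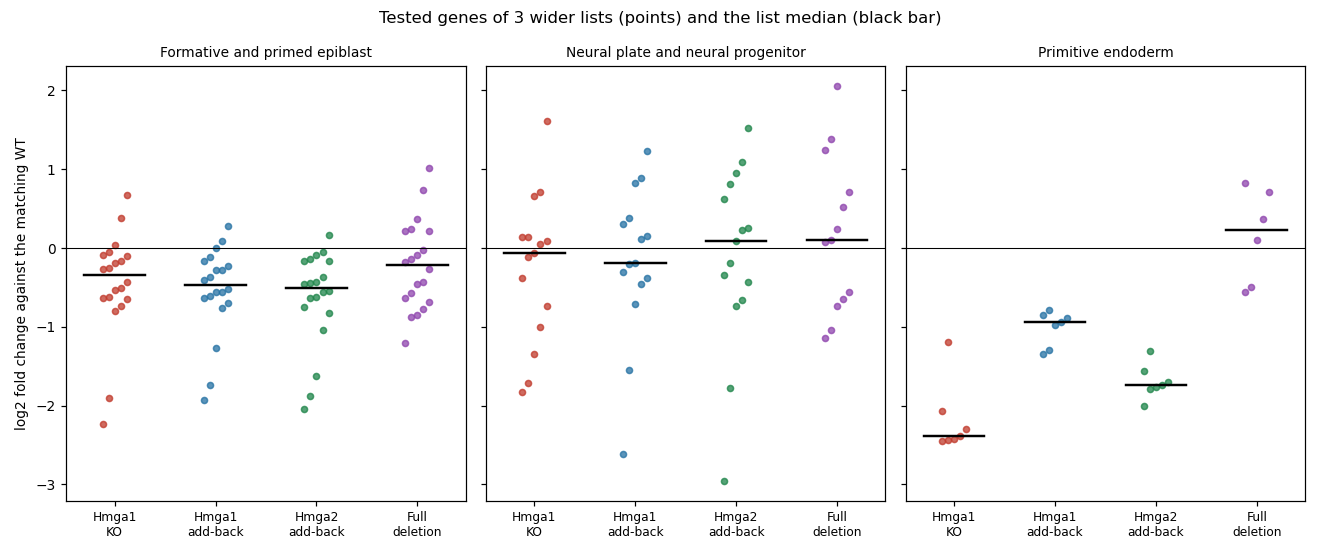
Points are the log2 fold changes of tested genes in 3 lists, by comparison with the matching WT, and black bars are list medians. The formative and primed epiblast medians lie between -0.50 and -0.22, the neural medians near 0, and the primitive endoderm median lies at -2.39 in the KO and at 0.23 in the full deletion.

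To place the members beside genes of similar pattern, the log2 CPM of each well-counted member was correlated with that of 9681 genes over the 15 libraries after centring each experiment. As a description, and with libraries sharing batch and depth, the 2 nearest genes were Cpne5 and Ankrd45 for Otx2 (Pearson r of 0.954 and 0.951), Coil and Eme1 for Nes (0.945 and 0.942), Bsn and B4gat1 for Sox1 (0.878 and 0.866), Sema3e and Ina for Pax6 (0.875 and 0.865), Slain2 and Tamm41 for Zic2 (both 0.802) and Nrip1 and Abhd17c for Pou3f1 (0.744 and 0.730). The 2 nearest genes differed between members. Drawn from 9681 genes, they cannot show whether the members varied together. Between these members themselves, r ran from -0.608 (Otx2 and Nes) to 0.646 (Sox1 and Pax6), with 0.627 for Pax6 and Nes and 0.521 for Otx2 and Zic2.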

How the data were processed

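Per the study's methods, the authors mapped single-end reads to mm9 with Bowtie through QuasR after trimming 3 bases, placed multi-mapping reads at 1 random position, and counted reads on the gene's strand over UCSC known genes, so that antisense transcripts were not added. The deposited values are raw gene counts, and bcl2fastq 2.17 is named in the submitters' processing notes. The members and the wider gene lists were chosen with earlier results of these data known. Counts were fitted per experiment with edgeR 4.0.16 (quasi-likelihood test, TMM, a minimum mean count of 10, Benjamini-Hochberg adjustment over all genes) in R 4.3.3. The study itself used limma-trend, which is an alternative here. Sox3 and Fgf5 are limited by depth, with mean counts of 17.8 and 5.11 in the KO experiment.

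In the KO experiment batch was a term of the fit, since equal letters shared a preparation day and flow cell; deviations between batches a and b correlated at 0.319 to 0.427 between WT and the other groups. WT c was the single library of its batch, so it set that term and added nothing to the group differences. In the full-deletion experiment equal letters did not pair libraries (correlations of -0.055 to 0.070), and no block was used. Named genes were all 8 members and, from the wider lists, chiefly called genes or those with the lowest p-values. Pim2, Hesx1, Msi1 and En1, which passed the less strict rule in the full deletion, were also named, as were Zfp42 and Nanog. Not every gene among the 2 lowest p-values of a list was named. Alternatives used DESeq2 1.42.0, limma 3.58.1 (log2 CPM, prior count 2), other scalings, filters and blocks, and left out each library. Scripts were tested on simulated counts. Sequences came from RefSeq, and were found on NCBIM37 by exact match. Intervals within a batch are exact binomial and cover counting error only.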

Additional observations from a re-analysis of the deposited data

How the results depend on the processing

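Leaving out each library, and fitting with other scalings, filters, tests and blocks, gave 791 alternative values for 49 fitted changes of the members, of which 749 kept their direction and side of the threshold, 5 passed it and 37 turned direction; 29 of the 49 changes never turned. The count of members called was 0 in every comparison and became 1 (Pax6) with DESeq2's Wald test in the line labelled Hmga1 add-back against WT, 1 (Pax6) in the Hmga2 add-back against WT with DESeq2's test or with only the groups compared, and 1 (Otx2) in the full deletion with DESeq2's test or an adjusted p under 0.05. Leaving out 1 library gave 0 to 1 members in the full deletion. With the replicate block in the full deletion, where letters do not pair libraries, 0 members were called, and the fits without the block in the KO experiment and the joint fit also called 0; without it Otx2 in the line labelled Hmga1 add-back against WT was 0.11 rather than -0.09. Leaving out libraries under the less strict rule, an alternative chosen after seeing the data, lost Otx2 in the full deletion without WT c or any 1 deletion library.

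Summed counts alone moved the median of all genes in the full deletion by 0.28, and there turned Pou3f1 to 0.24, Sox1 to 0.27, Sox3 to 0.10 and Pax6 to 0.26, and the differences between deletion and KO to 0.079 for Nes and 0.093 for Zic2; these are changes relative to a shifted median. With only the groups compared, Sox1 in the Hmga2 add-back against KO was -0.00625. Leaving out 1 library gave these ranges of log2 fold change. KO against WT: Nes -0.57 to 0.13 and Zic2 -0.55 to 0.93. Line labelled Hmga1 add-back against WT: Otx2 -0.47 to 0.32 and Zic2 -1.15 to 0.11. Hmga2 add-back against WT: Otx2 -0.19 to 0.59 and Zic2 -1.05 to 0.19. Line labelled Hmga1 add-back against KO: Pou3f1 -0.26 to 0.042, Sox1 -0.056 to 0.56, Nes -0.44 to 0.25 and Zic2 -1.43 to 0.050. Hmga2 add-back against KO: Sox1 -0.50 to 0.54, Pax6 -1.48 to 0.025, Nes -0.45 to 0.25 and Zic2 -1.39 to 0.10. Full deletion: Pou3f1 -0.17 to 0.14, Sox1 -0.14 to 0.15, Sox3 -0.41 to 0.078 and Pax6 -0.18 to 0.17. Deletion minus KO: Nes -0.58 to 0.13 and Zic2 -0.87 to 0.63. Where an arm was left with 1 library, that library was assumed to vary like the others. The causes were not tested. Depth limits Fgf5 and Sox3, where a few counts decide the value.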
